A study of Mus musculus with 18 samples.

Results

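CD4+ T cells of mice lacking ERRα were compared with wild-type CD4+ T cells after both had been stimulated in culture. The comparison rests on 6 of the 18 arrays of the series, 3 of stimulated knockout cells and 3 of stimulated wild-type cells, chosen by their titles. It covers the 10691 of 22690 probe sets that belong to a single gene and reach a log2 signal of 4 on at least 3 of the 18 arrays. These probe sets stand for 6873 genes, and each gene was tested through its brightest probe set.

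The knockout mice are labelled ERRa-/- (ERRKO) and the controls WT; mice of both genotypes were 6 to 8 weeks old. Purification was by negative magnetic selection, and the cells were stimulated for 12 h with 10 µg of anti-CD3 and anti-CD28 antibodies, which stand in for antigen and costimulation. The other 12 arrays, 3 per group, hold resting knockout and resting wild-type cells taken straight from the animal, and wild-type cells given XCT790 or compound A, inhibitors of ERRα, at 20 µM; for the inhibitor cells the sample fields say unstimulated and the treatment protocol says stimulated. The design text calls the 3 arrays of a group independent biological replicates, and the ERRα deletion was present in every cell of the knockout animal, not in T cells alone.

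ERRα, encoded by Esrra, is an orphan nuclear receptor that binds DNA at extended copies of the sequence AAGGTCA. With its PGC-1 coactivators it is known to raise transcription of genes for oxidative phosphorylation, the TCA cycle and fatty acid oxidation. T cells enlarge their mitochondrial and biosynthetic programmes when they are activated, and ERRα has been studied as a regulator of that metabolic change.

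The arrays differed in ways that bear on all results below. Among the control RNAs spiked in before labelling, bacterial dap gave 7.99, 7.83 and 7.57 (log2) at its 5′ probe set on the stimulated knockout arrays, against 5.68, 4.49 and 5.28 on the stimulated wild-type arrays. The 12 knockout and inhibitor arrays all lay above the 6 untreated wild-type arrays at this probe set, so genotype and this split of the arrays cannot be told apart here. At the 3′ probe set of the same control the values were 11.0, 10.8 and 10.7 on stimulated knockout arrays and 10.9, 10.6 and 10.8 on stimulated wild-type arrays. Other 5′ control probe sets did not all behave alike. Gapdh averaged 14.2 on both groups, β-actin 14.64 on knockout and 14.49 on wild-type arrays, and the transferrin receptor, below the floor, 3.22 on knockout and 2.63 on wild-type arrays. The knockout arrays all lay above the wild-type arrays for the last 2, as they did for the spiked control thr, also below the floor (mean 2.62 on knockout and 2.27 on wild-type arrays), but for none of these 3 did all 12 arrays lie above the 6. The other way, without overlap, went 1 of 2 probe sets of the spiked control lys (mean 5.66 on knockout and 5.94 on wild-type arrays) and that of pyruvate carboxylase, below the floor (2.37 on knockout and 2.40 on wild-type arrays), while the 2 of the spiked control phe overlapped. Stimulated knockout array 1 stood apart from its group, correlating over tested genes at 0.978 and 0.977 with arrays 2 and 3, which correlated at 0.998 with each other; the wild-type arrays correlated at 0.994 to 0.997.

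Esrra itself was lower in the knockout. Its probe set, for a gene on chromosome 19, read 4.33, 4.30 and 4.71 on stimulated knockout arrays, against 5.28, 5.47 and 5.36 on stimulated wild-type arrays. The groups did not overlap, and the signal was 1.89-fold lower in knockout cells (log2 difference -0.92 ± 0.11, SE, limma, adjusted p = 3.31e-04). Whether the deletion removed the stretch that these probes read is not stated in the labels. Of the 30 tested genes nearest to Esrra on its chromosome, 15 on each side, 0 passed the test after stimulation in limma and 5 had an unadjusted p under 0.05, beside 15.5% of all genes tested, with log2 differences from -0.53 to 0.28.

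After stimulation 150 genes differed between knockout and wild-type cells, 2.18% of the 6873 tested (limma, adjusted p under 0.05). Of these, 109 were higher in knockout cells, 1.59% of genes tested, and 41 were lower, 0.597%. The rises were larger than the falls: their median log2 difference was 0.87 and 44 of them reached 2-fold, while the falls had a median of -0.61 and 5 reached 2-fold. The knockout and wild-type arrays did not overlap for 149 of the 150 genes, beside 32.8% of all genes tested, 9.75% with the knockout above and 23% with it below. Over all genes the median difference was -0.06, so that values near it are no departure from the array as a whole. The count depended on single arrays: it was 85 without knockout array 1, 99 without knockout array 2, 66 without wild-type array 2 and 77 without wild-type array 3. A total of 39 genes, 32 higher and 7 lower, passed under every alternative in which they were tested, and 18 of those 32 rises follow the split of the arrays described for dap. That order was seen in 0.524% of genes tested and in 30 of the 109 rises. The stimulated arrays enter both the calls and the order, so called genes meet part of it beforehand. Fitted on these 6 arrays alone, 112 genes passed, and 74 of the 150 were among those called in the same direction. Of the genes named below, that fit also ended the calls of Slc25a15, Slc25a23, Timm9, Atp5o, Polrmt, Mphosph10, Hsd17b7, Il3, Iigp1, Lyz1, Lyz2, Fcer1g, Lef1, Ctla2a, Cxcr4, Anxa2, S100a6, Nol6, Lrp6, Usp18, Rab2b and Tspan9, with adjusted p from 0.0616 for Timm9 to 0.163 for Il3.

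The largest fall was that of Npas2, a paralogue of the clock transcription factor CLOCK that pairs with BMAL1. Npas2 read 2.66, 2.99 and 3.00 in stimulated knockout cells, against 5.48, 6.21 and 5.71 in stimulated wild-type cells. All 3 knockout arrays lay under the floor of log2 4, so the signal was at least 3.49-fold lower in knockout cells (log2 difference -2.92 ± 0.14, SE, limma, adjusted p = 3.79e-08). The gene averaged 2.24 in resting knockout and 2.24 in resting wild-type cells, 2.28 with XCT790 and 2.39 with compound A, so stimulated wild-type cells were the single group of the 6 above the floor. Of the 11 clock genes tested, Npas2 alone passed, while 10 of the 11 had a negative difference, with a list median of -0.33 beside -0.06 over all genes. Over all genes tested 0.597% fell and 33.8% had a positive difference. Per2, a repressor of the clock, read 2.90, 3.05 and 3.05 in knockout and 3.07, 4.32 and 4.23 in wild-type cells and did not pass (adjusted p = 0.0869). It passed without wild-type array 1 (1.30e-04), with array weights (0.00111) and on the arrays numbered 2 and 3 alone (7.85e-06). Here and below, the last 2 of these fits call many more genes than the 150 of the reported fit. With array weights, a fit that stopped before converging, 1639 genes passed, and on the arrays numbered 2 and 3 alone 432 passed. Clock itself differed by -0.32 (adjusted p = 0.386).

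Zfp982 and Rell1 were the other falls of at least 2-fold with wild-type signals above the floor and knockout signals below it. Zfp982, which encodes a zinc finger protein, read 3.24, 2.98 and 3.44 in stimulated knockout cells and 5.07, 5.97 and 5.83 in stimulated wild-type cells, at least 3.09-fold lower in the knockout (-2.41 ± 0.23, adjusted p = 2.25e-05). Its probe set carries the suffix x, which marks probes that may also match related transcripts, so which gene of the family gave the signal is uncertain. Rell1, a relative of the TNF receptor family member RELT, read 3.75, 3.23 and 3.13 in knockout and 5.07, 5.56 and 5.06 in wild-type cells (at least 2.35-fold lower; -1.86 ± 0.27, adjusted p = 0.00117). Each pair of groups was separate, and both calls passed in every alternative fit in which they were tested.

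Some of the falls encode mitochondrial proteins. They are described together after their values were seen, and their number was not set against all tested genes for such proteins. Chchd10, a protein of the intermembrane space, read 9.57, 9.79 and 9.85 in stimulated knockout cells, against 10.68, 10.96 and 10.81 in stimulated wild-type cells. It was 2.11-fold lower in the knockout (-1.08 ± 0.18, adjusted p = 0.00533), and a further probe set of the gene differed by -1.06. Ppif, encoding cyclophilin D of the permeability transition pore, read 9.88, 9.92 and 9.91 in knockout and 10.39, 10.37 and 10.30 in wild-type cells (1.36-fold lower; -0.45 ± 0.06, adjusted p = 0.00100). The 3 arrays of each group lay within 0.1 of each other for Ppif, and the call held in all 17 alternatives. Dlat, the E2 subunit of pyruvate dehydrogenase, which feeds pyruvate into the TCA cycle, read 8.17, 8.44 and 8.41 in knockout and 8.77, 8.82 and 8.89 in wild-type cells (-0.48 ± 0.08, adjusted p = 0.00504). Fitted on these 6 arrays alone Dlat did not pass (adjusted p = 0.0660).

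Rdh13, a retinol dehydrogenase of mitochondria, was 1.69-fold lower in the knockout (-0.76 ± 0.12, adjusted p = 0.00343; 0.0526 when fitted on these 6 arrays alone). Miga2, which promotes mitochondrial fusion, was 1.74-fold lower (-0.80 ± 0.16, adjusted p = 0.0149), a call that ended without knockout array 1 (0.0751) or wild-type array 2 (0.0779) or 3 (0.0561). Slc25a15, the ornithine carrier, was 1.41-fold lower (-0.50 ± 0.09, adjusted p = 0.0115; 0.0573 without knockout array 1 and 0.0763 without wild-type array 2). Slc25a23, a carrier of ATP-magnesium and phosphate, was 1.85-fold lower (-0.88 ± 0.19, adjusted p = 0.0248), and its call ended in 8 of 17 alternatives, with an adjusted p of up to 0.121, among them the fits without knockout array 1 or any 1 wild-type array. Timm9, an import chaperone, was 1.43-fold lower (-0.52 ± 0.13, adjusted p = 0.0463) and failed in 12 of 17 alternatives, among them the block on array number (0.0590) and the fits without any 1 knockout array or wild-type array 2 or 3 (up to 0.229).

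Polrmt, the mitochondrial RNA polymerase, read 9.08, 9.13 and 9.24 in stimulated knockout cells, against 9.43, 9.63 and 9.53 in stimulated wild-type cells, 1.3-fold lower in the knockout (-0.38 ± 0.08, adjusted p = 0.0213; failing without knockout array 1 or 2 or wild-type array 2 or 3, up to 0.135). It was the 1 gene that passed of 13 for mitochondrial transcription and DNA maintenance, beside 0.597% of all genes tested that fell. The median difference of the 13 was -0.17. Atp5o, a stalk subunit of ATP synthase, read 11.76, 11.85 and 11.85 in knockout and 12.06, 12.16 and 12.06 in wild-type cells (-0.27 ± 0.06, adjusted p = 0.0343), and failed without any 1 of the 6 arrays, with an adjusted p of up to 0.196. It was the 1 gene that passed of 35 for complexes III and IV and ATP synthase, beside 0.597% of all genes tested that fell. Of the others, Uqcr10 passed with the mean of probe sets (-0.31, adjusted p = 0.0143) and with array weights (-0.23, adjusted p = 0.00361). Cox8a passed with array weights (-0.21, adjusted p = 0.00516). All 35 had a negative difference and their median was -0.11, beside -0.06 over all genes and 33.8% of all genes with a positive difference. For 17 of the 35 the knockout arrays lay below the wild-type arrays without overlap, beside 23% of all genes tested.

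The large metabolic gene groups known for ERRα showed small differences. Of 33 complex I genes, 17 TCA cycle genes, 19 fatty acid oxidation genes and 70 mitochondrial ribosomal protein genes, 0 passed in either direction in limma, while 4, 3, 3 and 11 had an unadjusted p under 0.05, shares near the 15.5% of all genes tested. Their medians were -0.07, -0.10, -0.08 and -0.12, beside -0.06 over all genes. The difference was negative for 28, 16, 14 and 60 of them, while 33.8% of all genes had a positive difference. Knockout arrays lay below wild-type arrays without overlap for 12, 8, 2 and 28, beside 23% of all genes tested. They lay above without overlap for 1, 0, 3 and 0, beside 9.75%. Eci2, an isomerase of fatty acid oxidation, read 8.38, 8.42 and 8.41 in stimulated knockout cells and 7.98, 8.05 and 8.05 in stimulated wild-type cells (0.38 ± 0.10, adjusted p = 0.0692), and passed when fitted on these 6 arrays alone (0.0260), with every probe set (0.0461), with the mean of probe sets (0.0454), with array weights (1.83e-04) and on the arrays numbered 2 and 3 alone (0.0490). Ndufa5, a subunit of complex I, differed by -0.24 ± 0.08 (adjusted p = 0.148) and passed with the mean of probe sets (0.0486) and with array weights (0.00693). Cycs, encoding cytochrome c, read 13.12, 12.84 and 12.79 in stimulated knockout cells and 12.96, 13.04 and 13.13 in stimulated wild-type cells (-0.13 ± 0.10, adjusted p = 0.588), and was lower past the threshold on the arrays numbered 2 and 3 alone (-0.27, adjusted p = 0.0479) and with array weights (-0.22; 0.00818). Acadm, the medium-chain acyl-CoA dehydrogenase and a classic ERRα target, read 10.59, 10.32 and 10.47 in knockout and 10.49, 10.49 and 10.53 in wild-type cells (-0.04 ± 0.12, adjusted p = 0.917), with overlapping groups. Cpt1a, which commits fatty acids to mitochondrial oxidation, went the other way at 6.17, 5.68 and 5.77 in knockout against 5.33, 4.15 and 4.68 in wild-type cells (1.15 ± 0.29). Cpt1a missed the threshold (adjusted p = 0.0562) and passed in 7 of 17 alternatives, among them the block on array number (0.0314) and the fit without wild-type array 1 (0.0158); its dimmer probe set differed by 0.04.

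Nnt, the transhydrogenase that makes NADPH in mitochondria, was the 1 mitochondrial gene grouped here that rose. It read 8.69, 8.51 and 8.61 in stimulated knockout cells, against 7.98, 8.21 and 8.25 in stimulated wild-type cells (1.37-fold higher; 0.46 ± 0.08, adjusted p = 0.00700; 0.0803 when fitted on these 6 arrays alone). Its difference at rest was larger, 1.13, and the change of the difference with stimulation passed the interaction test (-0.67 ± 0.11, adjusted p = 0.0127; 0.0508 without wild-type stimulated array 2).

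Glucose metabolism and growth genes had small differences as well. Of 15 glycolysis genes tested, 0 passed in limma and 1 had an unadjusted p under 0.05, beside 15.5% of all genes tested, with a median of -0.08. Slc2a1, the main glucose transporter of activated T cells, averaged 9.87 ± 0.13 in stimulated knockout cells and 10.10 ± 0.15 in stimulated wild-type cells (SD, n = 3, limma, adjusted p = 0.524). Of 38 ribosome biogenesis genes, 32 had a negative difference, with a median of -0.13, and the 1 that passed rose: Mphosph10, a processing factor of pre-ribosomal RNA, differed by 0.41 ± 0.08 (adjusted p = 0.0186; 0.604 with the mean of probe sets, and up to 0.117 without knockout array 2 or 3 or wild-type array 2 or 3). Of 19 cholesterol synthesis genes, 17 had a negative difference, with a median of -0.23, and the 1 that passed, Hsd17b7, rose by 0.87 on the log2 scale from signals near the floor (adjusted p = 0.0119, and 0.0639 without wild-type array 2). In these lists of 38 and 19, 6 and 6 genes had an unadjusted p under 0.05 (limma), beside 15.5% of all genes tested. Over all genes tested 1.59% rose and 33.8% had a positive difference.

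Rrn3 and Nol6, which act in the making of ribosomal RNA and were grouped after their values were seen, fell. Rrn3, the factor that recruits RNA polymerase I, read 8.88, 8.93 and 8.88 in stimulated knockout cells, against 9.17, 9.22 and 9.23 in stimulated wild-type cells (1.24-fold lower; -0.32 ± 0.06, adjusted p = 0.0133; 0.0534 without knockout array 1, 0.0719 and 0.0607 without wild-type arrays 2 and 3). Nol6, a nucleolar protein, was 1.6-fold lower in the knockout (-0.68 ± 0.13, adjusted p = 0.0122; 0.0564 without knockout array 2, 0.0703 and 0.0568 without wild-type arrays 2 and 3).

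The extended ERR element TNAAGGTCA was searched on both strands of the RefSeq promoters of GRCm38.p6, from 250 bases before to 50 after each gene start. Of the falls, 36 of 41 had a promoter in the table and 1 held the element, 2.78%; of the rises, 89 of 109 had a promoter and 0 held it. Among all tested genes with a promoter 0.812% held it. The shorter AAGGTCA, contained in the extended element, was found in 2 of the 36 falls and 3 of the 89 rises, beside 3.74% of tested genes. The gene with the extended element was Rrn3, and the 250 bases before its start (chr16:13780449-13780698, plus strand, GRCm38.p6) are shown because they carry the match among the genes that changed; capitals mark the element, whose first base lies at -102 from the start.
Rrn3: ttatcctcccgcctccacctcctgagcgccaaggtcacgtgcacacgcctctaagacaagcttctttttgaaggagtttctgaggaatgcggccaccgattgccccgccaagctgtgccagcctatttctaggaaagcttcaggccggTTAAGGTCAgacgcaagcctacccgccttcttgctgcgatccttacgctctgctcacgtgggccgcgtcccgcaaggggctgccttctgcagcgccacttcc
The match describes the letters of this window and is no evidence of binding.

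Il6, Il17a and Il3 rose in stimulated knockout cells. They were 3 of 18 cytokine genes tested, where 1.59% of all genes tested rose, and all 3 were near background at rest in both genotypes. Of the 18, 0 fell, and the median difference was 0.15. An unadjusted p under 0.05 (limma) was seen for 5 of the 18, beside 15.5% of all genes tested. Il6, a proinflammatory cytokine, read 8.43, 6.62 and 6.45 in stimulated knockout cells, against 4.60, 2.61 and 4.01 in stimulated wild-type cells. It was 7.8-fold higher in the knockout with the wild-type array under log2 4 set to that floor (3.43 ± 0.46, adjusted p = 7.43e-04; 0.0928 when fitted on these 6 arrays alone). Il17a, the defining cytokine of TH17 cells, read 9.76, 7.62 and 7.39 in knockout and 4.87, 5.0 and 6.23 in wild-type cells. It was 7.42-fold higher (2.89 ± 0.54, adjusted p = 0.0111), a call that ended when fitted on these 6 arrays alone (0.121), without wild-type array 2 (0.0676) and on the arrays numbered 2 and 3 alone (1.89, adjusted p = 0.0610). For both genes knockout array 1 was the highest, and the groups stayed separate with it left aside.

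Il3, a growth factor for blood progenitors and mast cells, read 4.30, 4.85 and 5.46 in stimulated knockout cells and 3.57, 3.39 and 4.24 in stimulated wild-type cells (1.14 ± 0.23, adjusted p = 0.0155). The call ended without knockout array 2 (0.0509), wild-type array 1 (0.0654) or wild-type array 2 (0.104). Il21, made by follicular helper and TH17 cells, read 9.11, 7.63 and 7.32 in knockout against 5.65, 5.11 and 6.25 in wild-type cells and missed the threshold (2.35 ± 0.60, adjusted p = 0.0604), passing in 5 of 17 alternatives: with every probe set (0.0356), the mean of probe sets (0.0419), the trended and robust prior (0.0451), array weights (2.43e-04) and the arrays numbered 2 and 3 alone (0.0245). Il2 and Ifng, cytokines used to score activation, did not pass. Il2 averaged 10.81 ± 0.24 in knockout and 11.25 ± 0.11 in wild-type cells (SD, n = 3, limma, adjusted p = 0.478), and was lower past the threshold on the arrays numbered 2 and 3 alone (-0.64, adjusted p = 0.00660) and with array weights (-0.59; 0.00683). Ifng, encoding interferon gamma, averaged 11.77 ± 0.06 in knockout and 11.55 ± 0.36 in wild-type cells (adjusted p = 0.801).

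Of 25 cytokine receptor genes, 2 were higher and 0 lower, beside 1.59% and 0.597% of all genes tested. An unadjusted p under 0.05 (limma) was seen for 8 of the 25, beside 15.5% of all genes tested. Il12rb2, the inducible chain of the IL-12 receptor that marks TH1 commitment, read 4.56, 4.76 and 4.48 in stimulated knockout cells and 3.05, 2.36 and 2.30 in stimulated wild-type cells, at least 1.52-fold higher in the knockout (2.03 ± 0.24, adjusted p = 2.10e-04). Il12rb2 was at background in resting cells, with a difference of -0.01. Ifngr2, the signalling chain of the interferon gamma receptor, read 8.47, 8.92 and 8.43 in knockout and 7.21, 6.93 and 6.94 in wild-type cells (2.99-fold higher; 1.58 ± 0.24, adjusted p = 0.00232). Ifngr2 passed in all 17 alternatives, but its difference there ran from 0.79 to 1.76. It followed the dap split: the 12 arrays with high dap signal all lay above the 6 untreated wild-type arrays. Il2ra, the chain that activation adds to the IL-2 receptor, averaged 10.92 ± 0.06 in knockout and 10.82 ± 0.11 in wild-type cells (SD, n = 3, limma, adjusted p = 0.870).

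**Figure D1:**
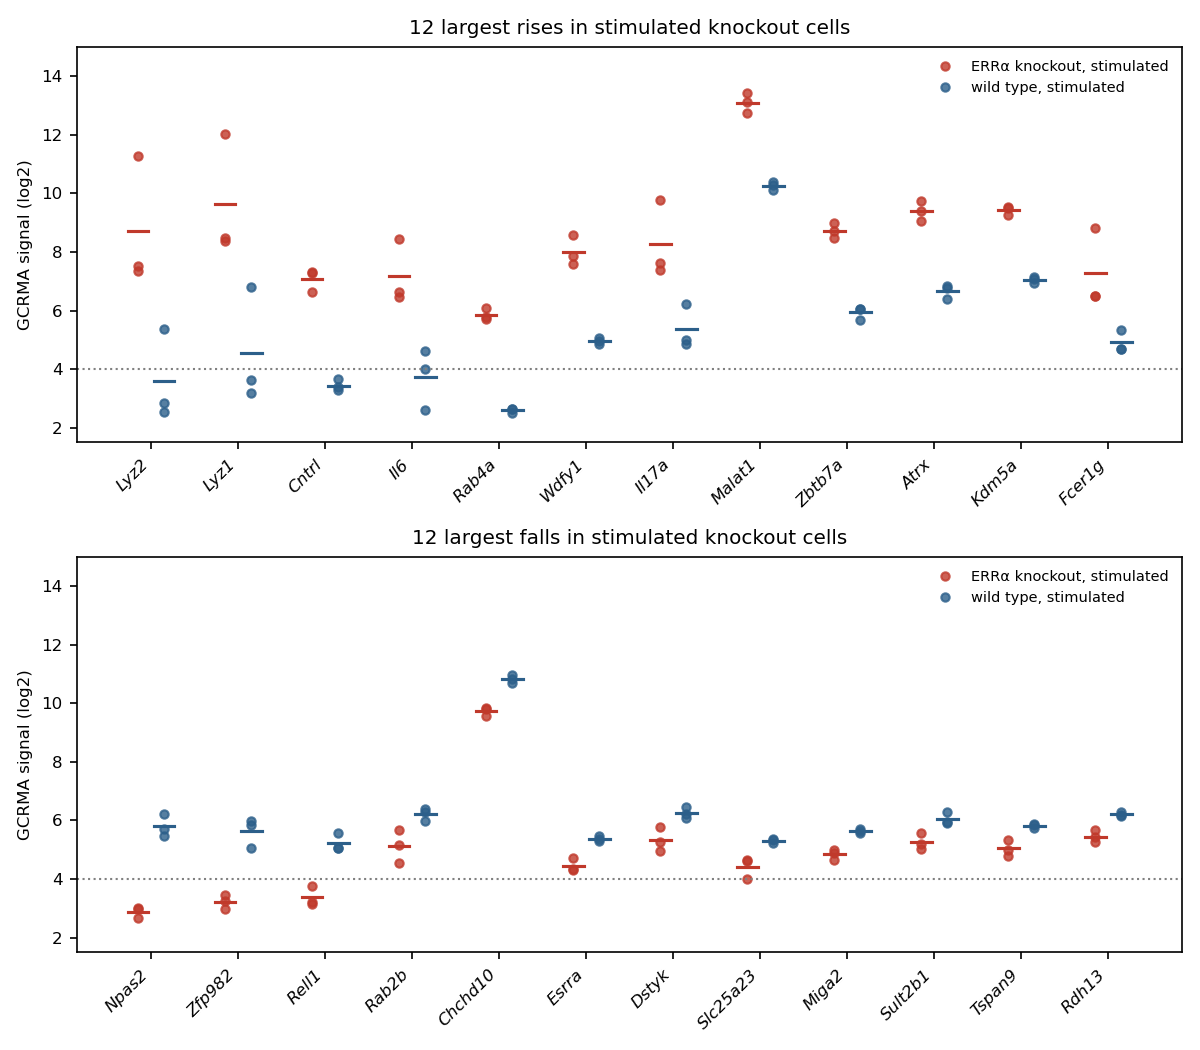
GCRMA signal (log2, vertical axis) of the 12 largest rises and the 12 largest falls among genes that passed with separate groups, in stimulated knockout cells (red) and stimulated wild-type cells (blue); points are arrays, bars are means of 3 and the dotted line is the floor of log2 4. Lyz2, Lyz1, Il6, Il17a and Fcer1g each have 1 knockout array far above the other 2, while Npas2, Zfp982 and Rell1 lie under the floor on all 3 knockout arrays.

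All 21 interferon-stimulated genes tested had a positive difference after stimulation, with a median of 1.09 and 0.20 at rest. Without knockout array 1, 18 of the 21 differences of means were positive and the median was 0.27. Of them 11 had an unadjusted p under 0.05, beside 15.5% of all genes tested, and 1 passed: Usp18, which removes the ubiquitin-like ISG15 from proteins. It read 11.35, 9.88 and 9.80 in stimulated knockout cells and 9.03, 8.46 and 9.11 in stimulated wild-type cells (2.79-fold higher; 1.48 ± 0.33, adjusted p = 0.0303), and its call ended in 7 of 17 alternatives, among them the fits without knockout array 1 (0.0638) and without wild-type array 1, 2 or 3 (0.0652, 0.177 and 0.0642). Oas1a, a sensor enzyme for double-stranded RNA, shows the pattern of the group at 9.33, 6.52 and 6.52 in knockout and 6.21, 5.27 and 6.07 in wild-type cells (adjusted p = 0.161). The mean over the 25 genes of the list was 8.65 on knockout array 1, against 6.50 and 6.47 on knockout arrays 2 and 3 and 6.32, 6.14 and 6.33 on the wild-type arrays.

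Of 10 chemokine genes, 9 had a positive difference, with a median of 0.89, and 0 passed in limma, while 5 had an unadjusted p under 0.05, beside 15.5% of all genes tested. Cxcl9, an interferon-induced attractant of T cells, read 12.18, 9.92 and 9.87 in stimulated knockout cells and 9.25, 8.32 and 8.33 in stimulated wild-type cells (2.02 ± 0.53, adjusted p = 0.0680) and passed in 6 of 17 alternatives, among them the block on array number (0.0209) and the fit without knockout array 3 (0.0461). Ccl5 differed by 1.78 ± 0.55 (adjusted p = 0.122; 0.0499 with the block) and Ccl9 by 1.5 ± 0.46 (0.121; 0.00561 with the block), and both also passed with array weights and on the arrays numbered 2 and 3 alone. Among 20 genes for interferon gamma GTPases and antigen processing, 18 had a positive difference and 1 passed: Iigp1, a GTPase directed at intracellular parasites, read 12.93, 12.37 and 12.29 in knockout and 11.89, 11.47 and 11.57 in wild-type cells (0.88 ± 0.19, adjusted p = 0.0205). The Iigp1 call ended without knockout array 1 (0.0909) and without wild-type array 2 (0.123) or 3 (0.0832). Of the 20, 5 had an unadjusted p under 0.05 (limma), beside 15.5% of all genes tested. Over all genes tested 1.59% rose and 33.8% had a positive difference.

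Cytotoxic and tissue-homing transcripts included 4 that rose, of which Gzma was on a fixed list and Cxcr6, Ctla2a and Cxcr4 were named after their values were seen. Gzma, the granule protease granzyme A, read 8.83, 9.25 and 9.25 in stimulated knockout cells and 8.00, 7.78 and 7.88 in stimulated wild-type cells (2.33-fold higher; 1.22 ± 0.30, adjusted p = 0.0492), and failed without any 1 of the 6 arrays, with an adjusted p of up to 0.196. It was the 1 gene that passed of 12 cytotoxic genes, 10 of which had a positive difference. Of all genes tested 1.59% rose and 33.8% had a positive difference. An unadjusted p under 0.05 (limma) was seen for 4 of the 12, beside 15.5% of all genes tested. Cxcr6, the receptor for CXCL16, read 7.97, 8.36 and 8.35 in knockout and 6.91, 6.98 and 6.86 in wild-type cells (2.48-fold higher; 1.31 ± 0.27, adjusted p = 0.0201; failing without knockout array 2 or 3 or any 1 wild-type array, up to 0.0784). Ctla2a, an inhibitor of cathepsin-type proteases, was 2.53-fold higher (1.34 ± 0.33, adjusted p = 0.0488; failed without any 1 of the 6 arrays, up to 0.196). The mean over 7 NK cell markers was 6.08, 6.32 and 6.38 on stimulated knockout arrays and 5.87, 5.66 and 5.69 on stimulated wild-type arrays. This list holds Gzma itself, and without it the mean was 5.62, 5.84 and 5.90 on knockout and 5.51, 5.31 and 5.32 on wild-type arrays, with Ncr1 and Klra8 under the floor on all 6; the part of NK cells in these rises was not tested.

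The largest rises of all were lysozymes, proteins of macrophages and granulocytes. Lyz2 read 11.28, 7.36 and 7.53 in stimulated knockout cells, against 5.38, 2.52 and 2.85 in stimulated wild-type cells (19.1-fold higher with 2 wild-type arrays set to the floor; 5.13 ± 1.17, adjusted p = 0.0335). Lyz1 read 12.04, 8.48 and 8.36 in knockout and 6.81, 3.62 and 3.18 in wild-type cells (25.8-fold higher on the same terms; 5.09 ± 1.21, adjusted p = 0.0432); the 2 genes are close copies whose probes may share signal. Fcer1g, the signalling chain of Fc receptors, read 8.82, 6.50 and 6.51 in knockout and 5.35, 4.69 and 4.69 in wild-type cells (5.16-fold higher; 2.37 ± 0.53, adjusted p = 0.0303). Array 1 was the highest of its group in both genotypes for all 3 genes. Without knockout array 1 the 3 calls ended, at adjusted p of 0.144 for Lyz2, 0.174 for Lyz1 and 0.0757 for Fcer1g, and they also ended without wild-type array 2 (0.179, 0.196 and 0.139) or 3 (0.132, 0.172 and 0.115). That of Lyz1 ended without knockout array 2 (0.0616) and that of Fcer1g without wild-type array 1 (0.0504).

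Most markers of neutrophils and macrophages were under the floor on all 6 arrays. The mean over 12 neutrophil markers was 4.59, 2.57 and 2.73 on stimulated knockout arrays and 2.46, 2.22 and 2.23 on stimulated wild-type arrays. S100a8, a calcium-binding protein abundant in neutrophils, read 10.06, 5.50 and 5.95 in knockout and 4.20, 2.20 and 2.17 in wild-type cells (adjusted p = 0.0588; past the threshold in 7 of 17 alternatives, among them 0.00201 with the array number as a block and 0.0455 without knockout array 2). Without S100a8 and S100a9 the mean of the other 10 was 3.60, 2.22 and 2.23 in knockout and 2.22, 2.23 and 2.23 in wild-type cells, so that knockout array 1 alone was higher, and 7 of the 10 were under the floor on all 3 knockout arrays and all 10 on the wild-type arrays. The mean over 17 macrophage markers, a list that holds Lyz2, was 3.24, 2.75 and 2.69 in knockout and 2.60, 2.45 and 2.46 in wild-type cells. Without Lyz2 it was 2.74, 2.46 and 2.39 in knockout and 2.42, 2.44 and 2.44 in wild-type cells, and 14 of the 17, among them Csf1r, Adgre1 and C1qa, were under the floor on all 6 arrays. The part of these cells in the rises was not tested. The T cell markers held the label: over 10 of them the mean was 11.64, 11.81 and 11.84 in knockout and 11.89, 11.87 and 11.76 in wild-type cells, 0 passed in limma or had an unadjusted p under 0.05, and Cd4 averaged 9.49 ± 0.21 in knockout and 9.60 ± 0.10 in wild-type cells (SD, n = 3). Of the CD8 markers, Cd8a was under the floor on all 6 arrays, and Cd8b1 read 5.73, 6.64 and 6.59 in knockout and 6.66, 7.28 and 7.32 in wild-type cells. Over 11 B cell markers the mean was 4.96, 4.38 and 4.34 in knockout and 4.92, 4.90 and 5.10 in wild-type cells. In such bulk samples fewer cells of a type and less RNA per cell cannot be told apart.

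Vim, S100a6 and Anxa2 rose; these too were named after their values were seen. Vim, the intermediate filament vimentin, read 10.89, 10.51 and 10.40 in stimulated knockout cells, against 9.24, 9.23 and 9.30 in stimulated wild-type cells (2.54-fold higher; 1.34 ± 0.12, adjusted p = 1.52e-05). In all 17 alternatives Vim passed. S100a6, a calcium-binding protein, was 3.34-fold higher (1.74 ± 0.37, adjusted p = 0.0213) and Anxa2, an annexin, 1.96-fold (0.97 ± 0.20, adjusted p = 0.0193). Without knockout array 1 neither passed (0.109 for S100a6 and 0.0900 for Anxa2), nor without wild-type array 2 (0.113 and 0.121) or 3 (0.110 and 0.0849). The smallest difference over the 17 alternatives was 0.33 for Anxa2 and 1.44 for S100a6.

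Of 18 quiescence and naive T cell genes, 2 were higher and 0 lower, beside 1.59% and 0.597% of all genes tested. An unadjusted p under 0.05 (limma) was seen for 5 of the 18, beside 15.5% of all genes tested. Klf6, a zinc finger transcription factor, read 10.42, 10.51 and 10.46 in stimulated knockout cells and 9.43, 9.39 and 9.76 in stimulated wild-type cells (1.92-fold higher; 0.94 ± 0.16, adjusted p = 0.00605). Lef1, a partner of β-catenin that is high in naive T cells, read 8.87, 9.56 and 9.29 in knockout and 8.42, 8.28 and 8.30 in wild-type cells (0.90 ± 0.20, adjusted p = 0.0288; failing without knockout array 2 or 3 or any 1 wild-type array, up to 0.130). S1pr1, which lets T cells leave lymphoid tissue, differed by 1.10 ± 0.27 and missed the threshold (adjusted p = 0.0505), passing in 9 of 17 alternatives, among them the block on array number (0.0163) and the fit without knockout array 1 (0.0199). Of 13 genes for G1 cyclins and CDK inhibitors, Cdkn2d, the inhibitor p19, passed at 8.48, 8.38 and 8.38 in knockout and 7.65, 7.86 and 7.74 in wild-type cells (0.66 ± 0.12, adjusted p = 0.00743). Of 20 unfolded protein response genes, Xbp1, a transcription factor of that response and of plasma cells, passed at 12.93, 12.83 and 12.80 in knockout and 12.33, 12.27 and 12.26 in wild-type cells (0.57 ± 0.12, adjusted p = 0.0187, failing without knockout array 1 or 2 or wild-type array 2 or 3, up to 0.104). In these lists of 13 and 20, 2 and 3 genes had an unadjusted p under 0.05 (limma), beside 15.5% of all genes tested. Of all genes tested 1.59% rose. Xbp1 is also 1 of 5 plasma cell markers, whose mean without it was 5.64, 5.05 and 4.93 on knockout and 4.88, 4.36 and 4.45 on wild-type arrays, with Sdc1 and Tnfrsf17 under the floor on all 6; the part of plasma cells in this rise was not tested. Of 29 DNA replication genes and 25 mitosis genes 0 passed in limma, and 1 and 0 had an unadjusted p under 0.05, beside 15.5% of all genes tested, with medians of -0.16 and 0.08.

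**Figure D2:**
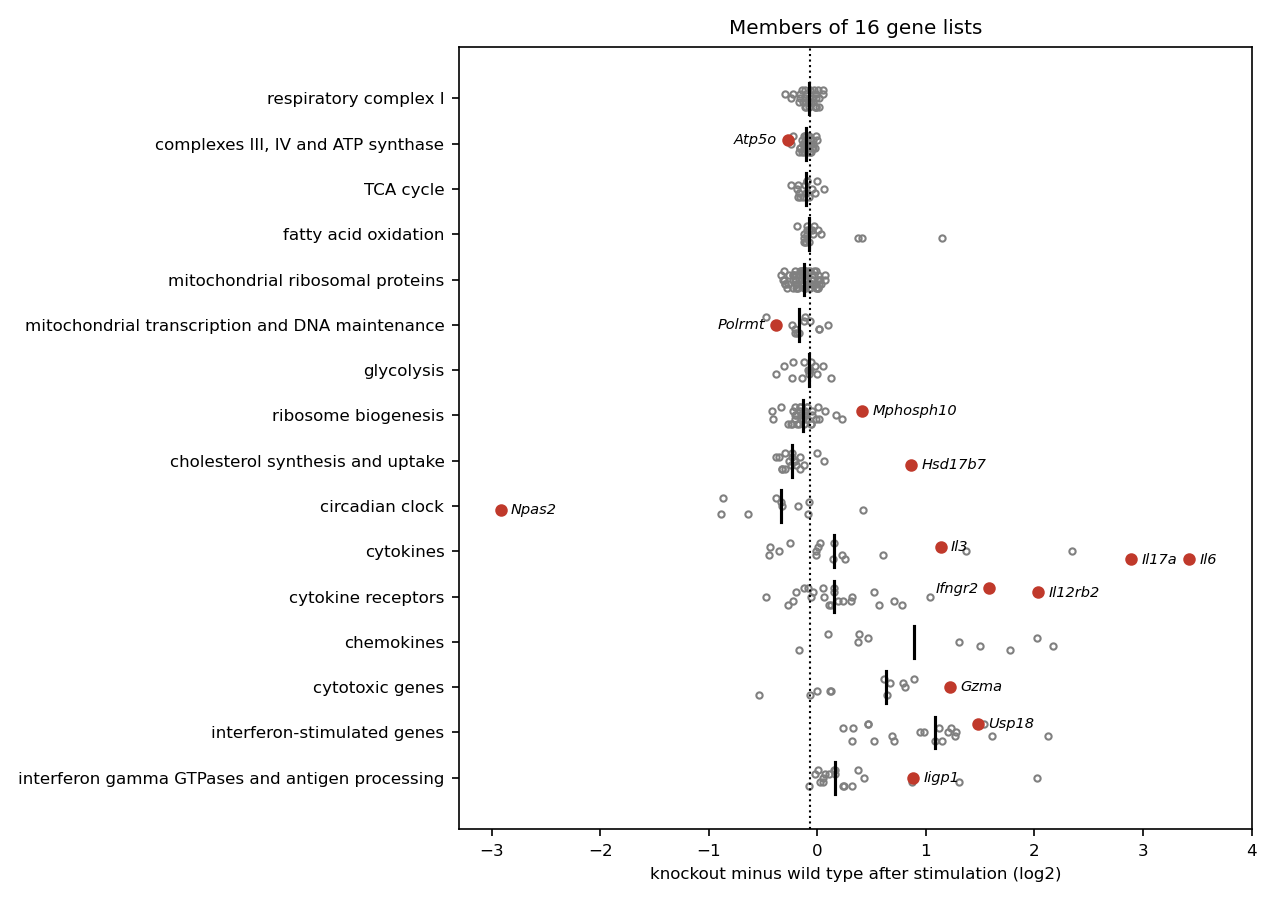
Difference of stimulated knockout minus stimulated wild-type cells (log2, horizontal axis) for the tested members of 16 gene lists; each point is a gene, filled red where it passed (adjusted p under 0.05), black bars are list medians and the dotted line is the median of all genes tested, -0.06. Mitochondrial lists lie close to that line, with Atp5o and Polrmt lower, while the 21 interferon-stimulated genes all lie to the right of 0 with Usp18 as the 1 that passed.

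Some rises followed the dap split. For 30 of the 109 rises, the 12 knockout and inhibitor arrays all lay above the 6 untreated wild-type arrays, a pattern seen in 36 genes, 0.524% of those tested. The inhibitor arrays come from wild-type cells. The median level of the 30 genes was 9.57, 9.65 and 9.32 on stimulated knockout arrays, between 9.76 and 10.9 on the 6 inhibitor arrays, and 8.54, 8.10 and 8.14 on stimulated wild-type arrays. All 30 passed at rest in the same direction, where knockout and wild-type arrays again lie on opposite sides of the split. Their median differences were 1.31 after stimulation and 1.46 at rest. The split itself puts the resting knockout arrays above the resting wild-type arrays, so that direction was fixed by the choice of genes. Among the 41 falls, 5 showed the reverse pattern, beside 0.364% of genes tested. Both patterns rest in part on the stimulated arrays that gave the calls, so called genes meet part of them beforehand.

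Malat1, a long noncoding RNA retained in the nucleus, was the brightest of these. It read 13.11, 13.44 and 12.75 in stimulated knockout cells and 10.39, 10.30 and 10.10 in stimulated wild-type cells (7.15-fold higher; 2.84 ± 0.21, adjusted p = 2.49e-06), and averaged 14.22 with XCT790 and 13.98 with compound A. Kdm5a, a histone H3 lysine demethylase, read 9.52, 9.54 and 9.27 in knockout and 7.15, 6.94 and 7.08 in wild-type cells (5.22-fold higher; 2.38 ± 0.17, adjusted p = 1.55e-06), and averaged 10.37 and 9.85 with the inhibitors. Atrx, a chromatin remodeller, was 6.65-fold higher (2.73 ± 0.25, adjusted p = 1.76e-05) and Zbtb7a, a transcriptional repressor, 6.86-fold (2.78 ± 0.20, adjusted p = 1.55e-06). Cntrl, the centrosomal protein centriolin, read 7.30, 7.30 and 6.63 in knockout and 3.66, 3.38 and 3.28 in wild-type cells, at least 8.44-fold higher (3.64 ± 0.42, adjusted p = 2.10e-04). All 5 genes passed in the 17 alternatives. Their smallest differences there were 1.95 for Malat1, 2.33 for Kdm5a, 1.56 for Atrx, 2.65 for Zbtb7a and 1.84 for Cntrl. For these 5 genes and for Ifngr2 above, genotype and the split cannot be told apart.

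Dimmer probe sets showed the split too. When each of the 10691 probe sets was tested, 497 passed, 4.65%: 393 were higher in knockout cells, 3.68%, and 104 lower, 0.973%. Of the 393, 252 were not the brightest probe set of their gene, and the brightest probe set passed in the same direction for 28 of those 252. The median difference of the 252 was 1.19, while the brightest probe sets of the same genes had a median of 0.01. The 252 were chosen because they rose, so part of that gap follows from the choice. Over all probe sets tested, 7.7% of the dimmer and 2.95% of the brightest passed in either direction. In 165 of the 393, 133 of them dimmer sets and 32 brightest sets, the 12 arrays with high dap signal lay above the 6 others without overlap, beside 1.66% of all probe sets. The stimulated arrays enter both the rise and this order, so a rise meets part of the order beforehand. The reverse order was seen in 0.309% of probe sets.

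Probe sets of 1 gene could disagree widely. For Baz1b, a chromatin protein, the dimmer probe set read 6.76, 7.41 and 6.40 in stimulated knockout cells and 2.31, 2.22 and 2.22 in stimulated wild-type cells, while the brightest read 10.01, 10.07 and 10.14 in knockout and 10.16, 10.08 and 10.11 in wild-type cells. For Scaf11, a splicing-associated protein, the dimmer set differed by 3.33 and the brightest by -0.16, and for Eif3a, a subunit of translation initiation factor 3, by 2.52 and -0.09. For Hif1a, the oxygen-regulated transcription factor, the dimmer set differed by 2.33 and the brightest by 0.25 (adjusted p = 0.322). Baz1b and Scaf11 had the largest such rises among genes whose brightest probe set did not pass. All 4 genes were picked after their values were seen, and the deposited table does not say which stretch of a transcript a probe set covers.

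**Figure D3:**
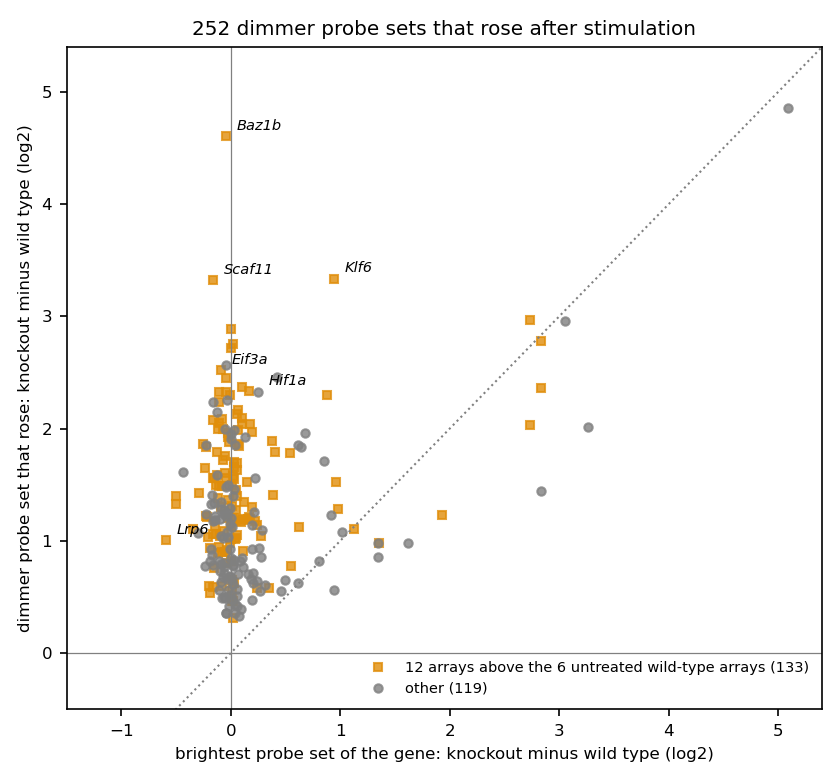
Difference of stimulated knockout minus stimulated wild-type cells (log2) for the 252 dimmer probe sets that rose (vertical axis) against the brightest probe set of the same gene (horizontal axis); orange squares mark the 133 in which the 12 arrays with high dap signal lie above the 6 untreated wild-type arrays, and the dotted line is equality. Most points lie near 0 on the horizontal axis, as Baz1b and Scaf11 do.

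A few genes followed genotype across all 18 arrays, with the inhibitor arrays on the wild-type side. Among those that passed after stimulation these were Wdfy1, higher on the 6 knockout arrays than on the 12 wild-type arrays, and Esrra, Zfp982, Chchd10 and Lrp6, lower; such a pattern was seen in 0.0873% and 0.218% of genes tested. The further Chchd10 probe set did not follow it, since the highest stimulated knockout array (9.68) lay above the lowest resting wild-type array (9.52). Wdfy1, an endosomal protein with WD repeats, read 8.59, 7.59 and 7.88 in stimulated knockout cells and 5.06, 4.96 and 4.85 in stimulated wild-type cells (8.32-fold higher; 3.06 ± 0.18, adjusted p = 3.15e-07), and averaged 7.98 in resting knockout and 5.94 in resting wild-type cells. A further Wdfy1 probe set differed by 2.96. Lrp6, a coreceptor for WNT, read 6.41, 6.85 and 6.77 in knockout and 7.25, 7.27 and 7.28 in wild-type cells at its brightest probe set (-0.59 ± 0.11, adjusted p = 0.00923), but its dimmer probe set rose by 1.00 and followed the dap split, so that the mean of both differed by 0.21. Rab4a, a GTPase of recycling endosomes, rose strongly, at 6.08, 5.71 and 5.78 in knockout and 2.64, 2.65 and 2.49 in wild-type cells (at least 3.62-fold higher; 3.26 ± 0.33, adjusted p = 4.06e-05), without following either pattern.

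**Figure D4:**
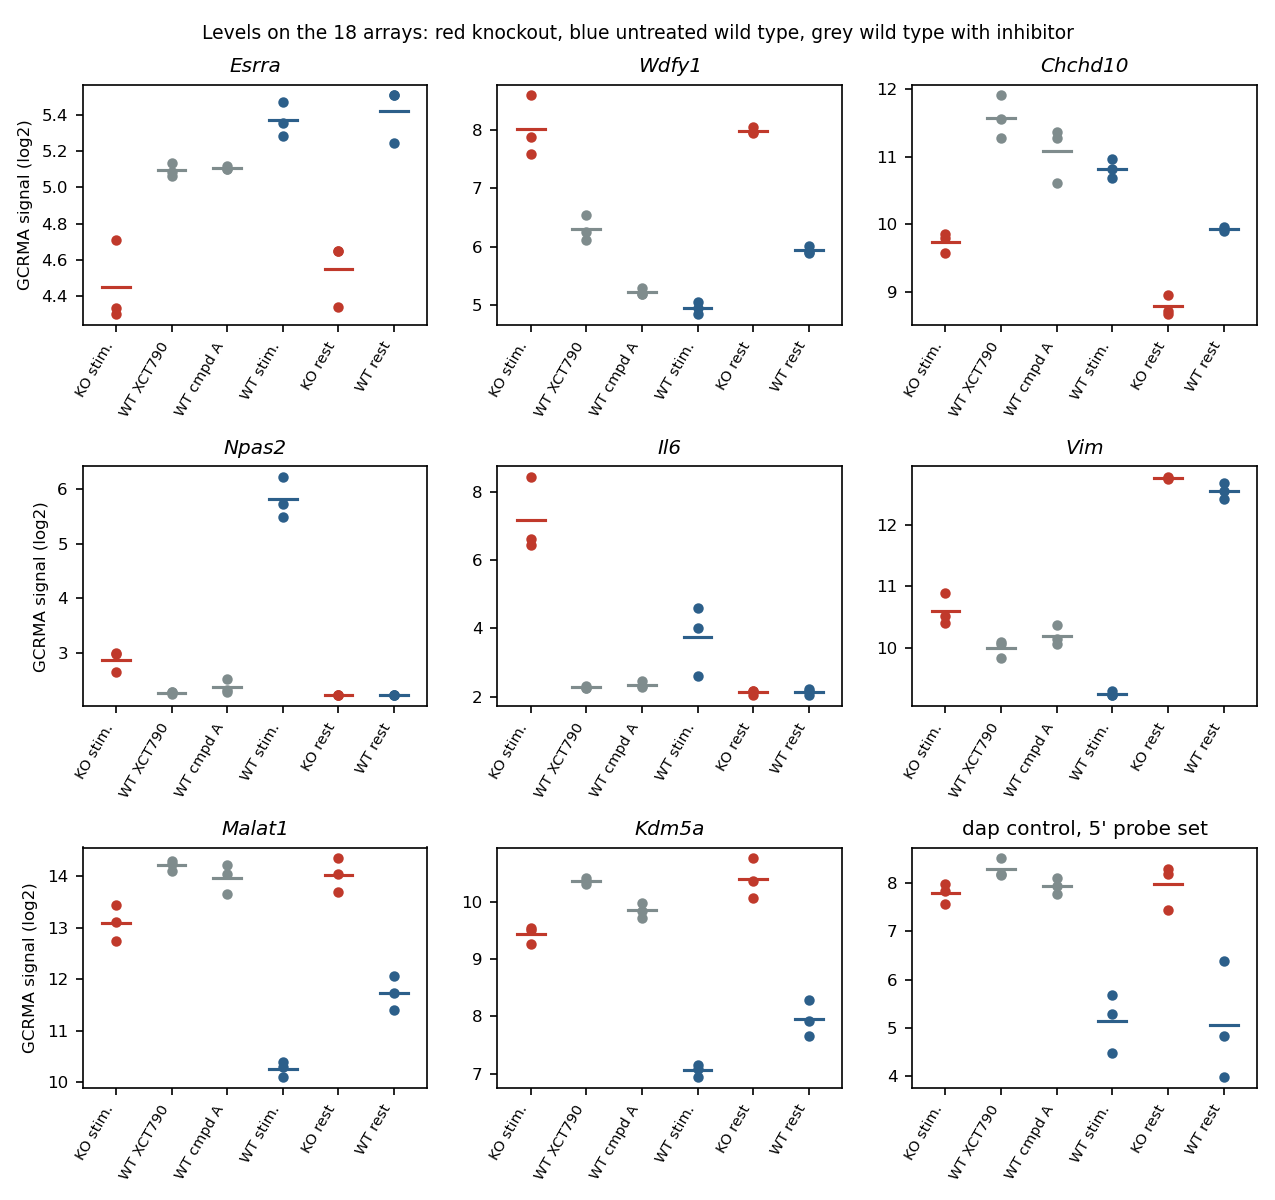
GCRMA signal (log2, vertical axes with a scale for each panel) of 8 genes and the 5′ probe set of the dap control on the 18 arrays; points are arrays, bars are means of 3, red is knockout, blue untreated wild type and grey wild type with an inhibitor. Esrra, Wdfy1 and Chchd10 separate the 6 knockout arrays from the 12 wild-type arrays, Malat1 and Kdm5a separate the 6 untreated wild-type arrays as dap does, and Npas2 lies above its level in the other 5 groups in stimulated wild-type cells alone.

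The resting cells gave the genotype difference on other arrays, although the fit takes 1 estimate of the spread from all 18. At rest 1308 genes passed, 19% of those tested, 463 higher in knockout cells, 6.74%, and 845 lower, 12.3%. The count was 176 when the resting arrays were fitted alone, 848 without knockout resting array 1, 737 without wild-type resting array 2, and 612 without wild-type resting array 3. Of the 150 genes that passed after stimulation, 85 also passed at rest in the same direction, 56.7% of the 150 and 6.5% of the 1308. Among rises this held for 65 of 109 and among falls for 20 of 41; 94 of the rises and 37 of the falls had the same sign at rest. Since the resting arrays lie on the same sides of the dap split, this repeat does not tell genotype from split. The 65 rises include the 30 that follow the split. Cxcr4, the receptor for CXCL12, was the 1 gene that passed in opposite directions, higher in the knockout after stimulation by 0.74 (8.22, 7.71 and 7.80 in knockout against 7.40, 7.15 and 6.97 in wild-type cells, adjusted p = 0.0353) and lower at rest by 0.54 (adjusted p = 0.0408). Its stimulated call ended in 6 of 17 alternatives, among them the fits without knockout array 1 (0.153) or 3 (0.0583) and without wild-type array 2 (0.139) or 3 (0.155).

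The test of whether the genotype difference changed with stimulation passed for 62 genes, 0.902% of those tested (0.48% upward and 0.422% downward), and for 8 of the 150. The stimulated arrays enter both tests, so the 150 meet part of the interaction test beforehand. With the array number as a block the count over all genes was 123. It was 124 and 141 without knockout resting arrays 2 and 3, and between 22 and 34 without knockout stimulated array 2 or 3, wild-type resting array 2 or 3, or any 1 wild-type stimulated array. Npas2 (-2.91 ± 0.20, adjusted p = 4.30e-06), Vim (1.13 ± 0.17; 0.00524) and Il12rb2 (2.04 ± 0.33; 0.0125) passed in all 15 alternatives of this test. Il6 passed (3.44 ± 0.66; 0.0272) but not without wild-type resting array 2 (0.0607) or 3 (0.0707) or wild-type stimulated array 3 (0.0538). Il17a, with a difference of 2.89 after stimulation and 0.02 at rest, did not pass the interaction test (2.87, adjusted p = 0.0944). Of the 150 genes, 58 passed neither at rest nor in the interaction test, so whether their difference belongs to stimulated cells was not settled.

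**Figure D5:**
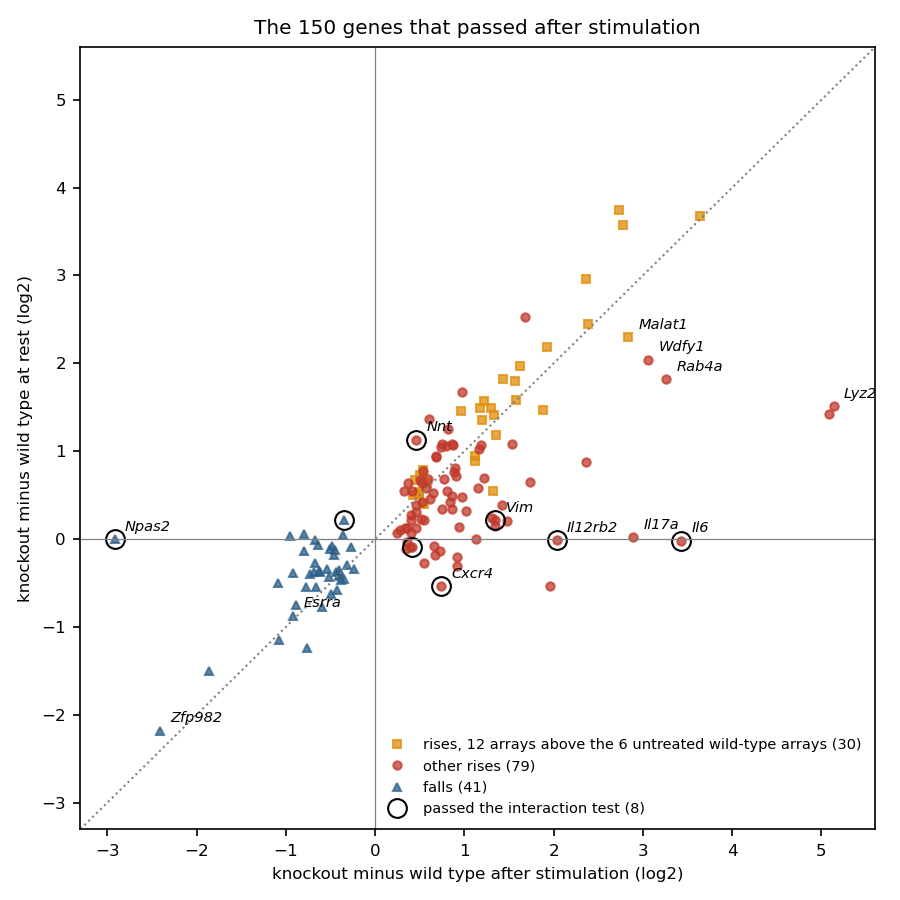
Knockout minus wild-type difference at rest (log2, vertical axis) against that after stimulation (log2, horizontal axis) for the 150 genes that passed after stimulation; orange squares are the 30 rises that follow the dap split, red circles the other 79 rises, blue triangles the 41 falls, open rings the 8 genes that passed the interaction test, and the dotted line is equality. The orange squares, whose direction at rest was fixed by their choice, lie along the line, while Npas2, Il12rb2, Il6 and Il17a lie near 0 at rest.

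Other falls completed the 12 largest. Sult2b1, which sulphates cholesterol, read 5.02, 5.18 and 5.56 in stimulated knockout cells and 6.28, 5.92 and 5.94 in stimulated wild-type cells (1.74-fold lower; -0.80 ± 0.12, adjusted p = 0.00234; 0.0926 when fitted on these 6 arrays alone). Dstyk, a dual-specificity protein kinase, was 1.89-fold lower in the knockout (-0.92 ± 0.17, adjusted p = 0.00988; 0.109 when fitted on these 6 arrays alone, 0.0643 on the arrays numbered 2 and 3 alone and 0.0681 without wild-type array 2). Rab2b, a GTPase of the Golgi, was 2.13-fold lower (-1.09 ± 0.24, adjusted p = 0.0282) and Tspan9, a tetraspanin, 1.71-fold (-0.77 ± 0.18, adjusted p = 0.0354). The Rab2b call ended in 8 of 17 alternatives and the Tspan9 call in 9 of 16, with adjusted p up to 0.131 and 0.152. For Rab2b these included the fits without knockout array 1 or 3 or wild-type array 2 or 3, and for Tspan9 those without knockout array 1 or 2 or any 1 wild-type array.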

How the data were processed

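RNA was hybridised to Affymetrix Mouse Genome 430A 2.0 arrays after biotin labelling, per the labels. The authors deposited log2 values made with GCRMA, per the submitters' processing notes; all 18 arrays hold the same sorted values (median 3.55), so changes are relative to other genes on an array, and 3 arrays per group limit the precision.

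Probe sets that were controls (64), had no gene (1555) or several (691) were left out; each of 12393 genes was represented by its brightest probe set on average, tested where it reached log2 4 on 3 arrays. limma 3.58.1 (R 4.3.3) was fitted with 1 mean per group over 18 arrays, a constant prior (12 residual and 2.22 prior degrees of freedom) and two-sided tests; Benjamini-Hochberg adjustment ran over 6873 genes. Values under log2 4 were set to 4 for fold changes, given as "at least" where all 3 arrays of the lower group were under it. The fit was tested on simulated data. Promoters are from RefSeq (GRCm38.p6). Figures used Python 3.11.15 and matplotlib 3.10.9.

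The text names Esrra, the rises and falls (12 of each) with the greatest differences among genes that passed with separate groups and a mean of at least log2 4, up to 4 members of smallest adjusted p in each list described, and Il2, Ifng, Il2ra, Il6, Slc2a1, Cpt1a, Cycs and Acadm. Others are marked in the text. The members and lists were chosen with earlier results of these data known. Deviations of equally numbered stimulated arrays from their group means correlated at 0.442, 0.384 and 0.148. No values of unequally numbered arrays were set beside these, and no label names a shared day or animal. Whether the numbers pair the arrays was therefore not settled. The reported fit has no block on array number, so its p-values leave such a pairing out. With the block 189 genes passed after stimulation and 123 passed the interaction test. Settings varied 1 at a time: the filter (none, or log2 6), the gene summary (every probe set, or their mean), blocking on array number, the arrays fitted (6 compared or 12 untreated), a prior that was trended and robust, weighting of arrays, a shared array median, a 2-fold minimum, and omission of each array. The arrays numbered 2 and 3 alone, the lists without knockout array 1 and the marker means without a named gene were added after seeing the data.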

Additional observations from a re-analysis of the deposited data

Results flagged for a closer look

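For 8 of the genes that passed after stimulation, the knockout difference itself differed between stimulated and resting cells by the interaction test of the same fit. Its value, the stimulated difference minus the resting difference, was -2.914 for Npas2, 3.445 for Il6, 2.042 for Il12rb2, 1.274 for Cxcr4, 1.129 for Vim, 0.5085 for Samhd1, -0.5599 for Lsm2 and -0.6738 for Nnt on the log2 scale. Samhd1, a dNTP hydrolase, read 12.66, 12.68 and 12.71 in stimulated knockout and 12.30, 12.23 and 12.27 in stimulated wild-type cells. Lsm2, a subunit of the U6 snRNA ring, read 9.45, 9.40 and 9.49 in stimulated knockout and 9.81, 9.80 and 9.77 in stimulated wild-type cells. The stimulated call of Lsm2 ended without any 1 of the 6 arrays (limma, adjusted p up to 0.125). That of Samhd1 ended with the mean of probe sets (0.133) and without wild-type array 2 (0.0555). The interaction call ended in 11 of 15 alternatives for Samhd1, 8 for Lsm2, 5 for Cxcr4, 5 for Il6 and 1 for Nnt, with adjusted p up to 0.121, 0.0898, 0.0780, 0.0975 and 0.0508.

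The dap control RNA, which is no part of the comparison, differed by 2.645 between stimulated knockout and stimulated wild-type arrays at its 5′ probe set, well beyond the spread within either group.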

How the results depend on the processing

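The stimulated count of 150 genes was 497 with every probe set, 253 with the mean of probe sets, 1639 with array weights, whose fit stopped before converging, 432 on the arrays numbered 2 and 3, 49 at 2-fold and 112 on the compared groups alone, of which 74 were among the 150; leaving out each array gave 66 to 136. With array weights 37.1% of calls were rises, against 72.7% in the reported fit and 60.7% with no filter. With the array number as a block it was 189, of which 142 were among the 150. The resting count of 1308 was 176 on the compared groups alone and 612 to 1487 without each array; the interaction count of 62 was 123 with the block, 38 on the compared groups and 22 to 141 without each array. Esrra stayed past the threshold in all 16 alternatives in which it was tested (-0.85 to -1.05) and was not tested at a floor of log2 6. Acadm (-0.04) turned to 0.027 without knockout stimulated array 2, the highest of -0.11 to 0.03 without each array, and Lrp6 to 0.21 with the mean of probe sets; the cause was not tested beyond the Lrp6 probe sets. Over a set that holds many of the named genes and also list members not named here, 198 alternatives ended a call and 103 made one.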
